A study of Mus musculus with 6 samples.

Results

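The well expressed lincRNAs of mouse liver were examined: the genes that the GENCODE M21 annotation types as lincRNA (long intergenic non-coding RNA) and that had at least 0.5 FPKM in all 6 libraries of the series. FPKM is the number of reads of a gene scaled by the length of its exons and by the read total of its library. The members were chosen by these FPKM values, so their presence in all 6 libraries is a condition of entry and not a result. The rule left 185 genes of the 55536 in the files, which hold 5854 genes typed as lincRNA, 1665 of them with a read in any library. Since the floor holds in every library, a lincRNA that dropped below 0.5 FPKM in a single library is not among them.

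The 6 libraries are liver RNA of male C57BL/6 mice, an inbred laboratory strain, aged 6 weeks when dosing began. In 3 libraries (PS-MP) the mice had been given polystyrene microplastics by mouth, labelled as 0.4 mg per day with 2 dosings a week over 8 weeks, and in 3 libraries (water) the mice had been given water on the same schedule. Groups differ in the dosing alone as far as the labels go. No label gives the particle size, the hour of collection, the feeding state or a batch, so these cannot be told apart from the dosing, and whether each library stands for a mouse of its own is not stated, which leaves p-values as a measure of the spread between libraries only.

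LincRNAs are transcribed mostly by RNA polymerase II, capped and often spliced and polyadenylated like mRNAs, but they carry no long conserved reading frame. Some act in the nucleus, where they build nuclear bodies or act on neighbouring genes. Others act in the cytoplasm or serve mainly as hosts from whose introns or exons small RNAs are cut. In liver, lincRNAs have been described that act in bile acid, lipid and glucose metabolism, and many respond to feeding and to the hour of day. For most annotated mouse lincRNAs no function is known.

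The names show this. Of the 185 members, 98 carry predicted gene model names (Gm and a number), 57 carry Riken clone names, 11 carry clone names and 19 carry other symbols. By symbol, 116 members matched a gene of RefSeq GRCm38.p6, which types 109 of these as lncRNA, 1 as a transcribed pseudogene and 6 as protein-coding. The members that RefSeq types as protein-coding were Tmem250-ps, 1810058I24Rik, Gm39469, Gm46430, Gm6712 and Gm5165. 1810058I24Rik encodes the mitochondrial micropeptide Stmp1, so the lincRNA type of the annotation does not hold for it.

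Recovered totals ran from 13082210 to 15938284 reads in the PS-MP libraries and from 14520402 to 16948343 reads in the water libraries. The 10 hepatocyte markers had reads in all 6 libraries and summed to 93300 to 110000 CPM (reads as a share of the library, without scaling by length) in PS-MP and to 107000 to 115000 CPM in water, as the liver label asks. Transcripts of other tissues were uneven. The 12 forebrain markers, of which 5 had reads in all 6 libraries, summed to 31.4, 21.7 and 224 CPM in PS-MP replicates 1, 2 and 3 and to 13.8, 11.7 and 13.1 CPM in water replicates 1, 2 and 3. Reads of Ucp1, the defining thermogenic gene of brown fat, numbered 0, 0 and 68 in PS-MP replicates 1, 2 and 3 and 139, 0 and 15 in water replicates 1, 2 and 3. The 5 white fat markers summed to 0, 0.0627 and 9.72 CPM in PS-MP and to 25.9, 0.472 and 8.26 CPM in water. The 3 libraries with Ucp1 reads had the largest of these sums. PS-MP replicate 3 also stood apart on the first principal component of all genes tested. Each call is therefore also given without it. Fold changes are also given without the 3 libraries that hold Ucp1 reads. That refit sets PS-MP replicates 1 and 2 against water replicate 2 alone. It gives a distance to a single water library, and whether a call is kept cannot be read from it.

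Among members the mean level ran from 0.615 to 208.6 FPKM with a median of 2.2 FPKM. A mean of at least 10 FPKM was reached by 21 members, 140 lay between 1 and 10 FPKM and 24 lay below 1 FPKM. The members took 0.344%, 0.326% and 0.394% of the reads of PS-MP replicates 1, 2 and 3 and 0.348%, 0.335% and 0.38% of the reads of water replicates 1, 2 and 3. These ranges overlap.

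A single member supplied a large share of those reads. Malat1, the nuclear-retained RNA of splicing speckles, had 205, 203 and 257 FPKM in PS-MP replicates 1, 2 and 3 and 182, 187 and 218 FPKM in water replicates 1, 2 and 3. The library of PS-MP replicate 3 was the highest and the groups overlapped. Its log2 fold change (PS-MP over water, on the scale of FPKM + 0.5, as are all fold changes here) was 0.18 with a standard error of 0.11 (limma, adjusted p = 0.559), and 0.07 without PS-MP replicate 3. In these libraries Malat1 made up 0.142% to 0.179% of the reads in PS-MP and 0.127% to 0.152% in water, and its level was more than that of any other member in all 6.

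After Malat1 came members with little described function. AC117816.1, a single-exon transcript that begins 1089 bases downstream of A1cf on the same strand, had 57.04, 54.3 and 53.8 FPKM in PS-MP and 57.4, 47.4 and 58.1 FPKM in water. A1cf encodes a partner of the Apob mRNA editing enzyme. With so short a gap on the same strand, reads running on from A1cf cannot be told apart from reads of AC117816.1. The groups overlapped, and A1cf itself had a log2 fold change of -0.13 (limma, adjusted p = 0.511).

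Gm48199 had 34.2, 39.5 and 32.6 FPKM in PS-MP and 40.1, 40.6 and 42.1 FPKM in water. All 3 PS-MP libraries lay below all 3 water libraries, but the difference was small, with a log2 fold change of -0.21, an unadjusted p of 0.0335 and an adjusted p of 0.334 by limma. AW112010, an immune-regulated transcript from which macrophages make a small protein, had 30.9, 28.0 and 34.3 FPKM in PS-MP and 33.2, 32.7 and 35.0 FPKM in water. The Norad gene, listed as 2900097C17Rik and known for binding Pumilio proteins in the cytoplasm, had 27.2, 23.5 and 27.9 FPKM in PS-MP and 25.9, 24.6 and 25.2 FPKM in water. For both, the groups overlapped.

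Neat1, the RNA on which paraspeckles are built, had 15.2, 12.9 and 18.2 FPKM in PS-MP and 17.2, 17.6 and 18.8 FPKM in water. PS-MP replicates 1 and 2 were the lowest libraries and PS-MP replicate 3 lay within the water range (log2 fold change -0.22, limma adjusted p = 0.481). Neat1 and Malat1 lie next to each other on chromosome 19, within 5795690 to 5845478. Gm26917, whose sequence resembles ribosomal RNA repeats, had 19.2, 29.5 and 10.5 FPKM in PS-MP and 23.7, 19.5 and 20.1 FPKM in water. PS-MP libraries were both the highest and the lowest for it, and how much ribosomal RNA was left in each library was not tested.

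Other members among the 12 most abundant varied more between libraries or differed little. Gm31583, which lies 96231 bases upstream of the transcriptional repressor gene Bcl6, had 12.3, 18.6 and 36.0 FPKM in PS-MP and 21.2, 19.8 and 28.2 FPKM in water. The PS-MP libraries spanned more than the water range, with PS-MP replicate 3 the highest of all (log2 fold change -0.17, limma adjusted p = 0.867). Bcl6 itself had 4, 1.4 and 2 FPKM in PS-MP and 5.31, 9.35 and 6.55 FPKM in water, where the groups did not overlap but the test was not passed (log2 fold change -1.41, limma adjusted p = 0.124).

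AC127342.1 had 33.8, 25.8 and 34.7 FPKM in PS-MP and 47.2, 29.8 and 48.7 FPKM in water. Water replicates 1 and 3 were high and water replicate 2 lay within the PS-MP range (log2 fold change -0.39, limma adjusted p = 0.453, and -0.01 without the 3 libraries with Ucp1 reads). Tmem250-ps had 19.6, 19.4 and 20.4 FPKM in PS-MP and 21.9, 22.7 and 20.97 FPKM in water, so the groups did not overlap although the log2 fold change was only -0.14 (limma, adjusted p = 0.401). Gm48633, 27587 bases from the apolipoprotein gene Apob, had 16.5, 14.7 and 19.4 FPKM in PS-MP and 19.4, 16.4 and 16.4 FPKM in water, and the groups overlapped.

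The gene models of the members, which the rule did not use, were mostly short, though they reached 20771 exon bases in Neat1 and 11 exons in Gm46430. The transcript with the most exons had a median of 3 exons per member, against 9 for protein-coding genes under the same FPKM rule, and 23 of the 181 tested (12.7%) had a single exon, against 4.76% of all genes tested. The 112 other lincRNAs tested were alike in this, with a median of 3 exons and 13.4% with a single exon.

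**Figure D1:**
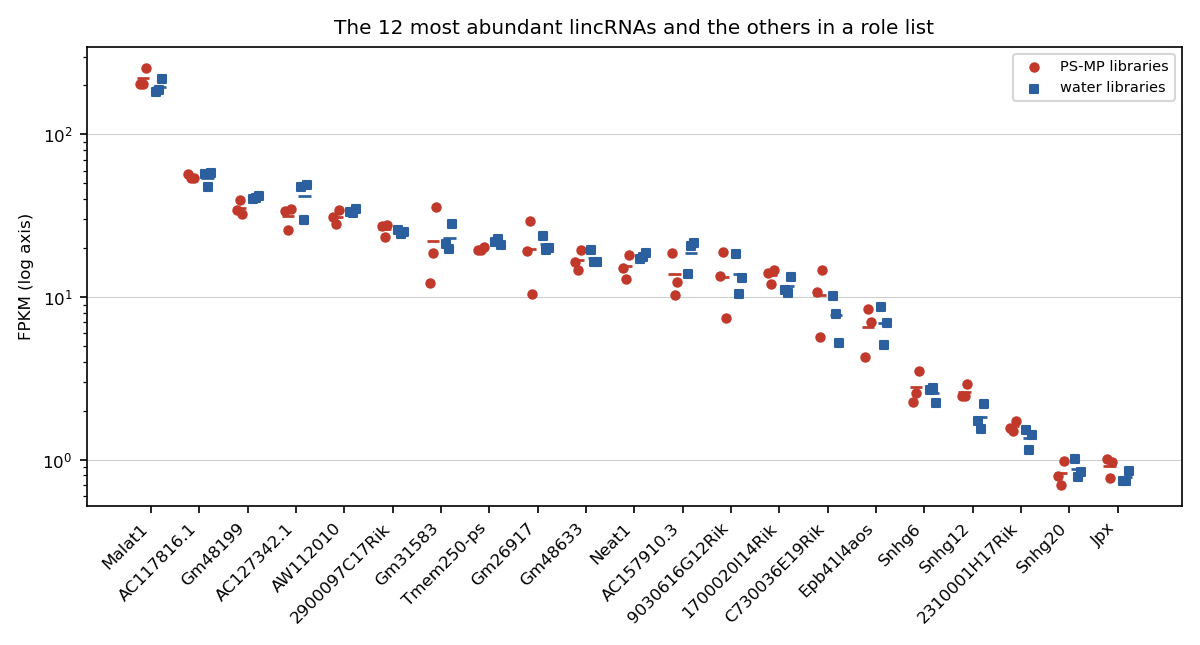
FPKM (log axis) of the 12 members with the highest mean level and of the other members of the role lists, with PS-MP libraries as circles left of water libraries as squares and a bar at each group mean. Malat1 lies near 200 FPKM in all 6 libraries, the others lie below 60 FPKM, and the groups overlap for most of these genes.

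The comparison asked which of these lincRNAs differed between livers of PS-MP and water mice. Few passed the test, and failing it does not show that a member was unchanged. Of the members, 181 had enough reads to be tested (at least 0.66 CPM in 3 libraries and 15 reads in all), and 2 passed, Gm34654 and Gm32063, both lower in PS-MP. That is 1.1% of the members tested, beside 0.489% of all 13299 genes tested in either direction and 0.248% called lower. The other 4 members, Gm36231, Gm11707, AC122818.3 and Gm47465, had too few reads. With 2 calls, no statement on how the members differ from other genes can be read from the shares.

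At an unadjusted p under 0.05, 42 members differed, 17 higher and 25 lower, which is 23.2% of the members tested beside 13.1% of all genes tested. The PS-MP and water libraries did not overlap for 45 members tested, 22 with PS-MP above and 23 with PS-MP below, which is 24.9% beside 19.2% of all genes tested. The median log2 fold change over the members was -0.03, against 0.01 over all genes tested, a distance smaller than the spread between libraries of the members' own median level, which was 0.09 on the log2 scale.

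Members also varied more between libraries of the same group. The median within-group standard deviation on the log2 scale was 0.23 for members, 0.12 for protein-coding genes that met the same FPKM rule and 0.23 for the 112 other lincRNAs tested. Depth and length go along with this: a member had a median of 293 reads over the 6 libraries and 1603 bases of exon, whereas the protein-coding genes under the same rule had medians of 1970 reads and 4410 bases. Whether the spread comes from these was not tested.

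**Figure D2:**
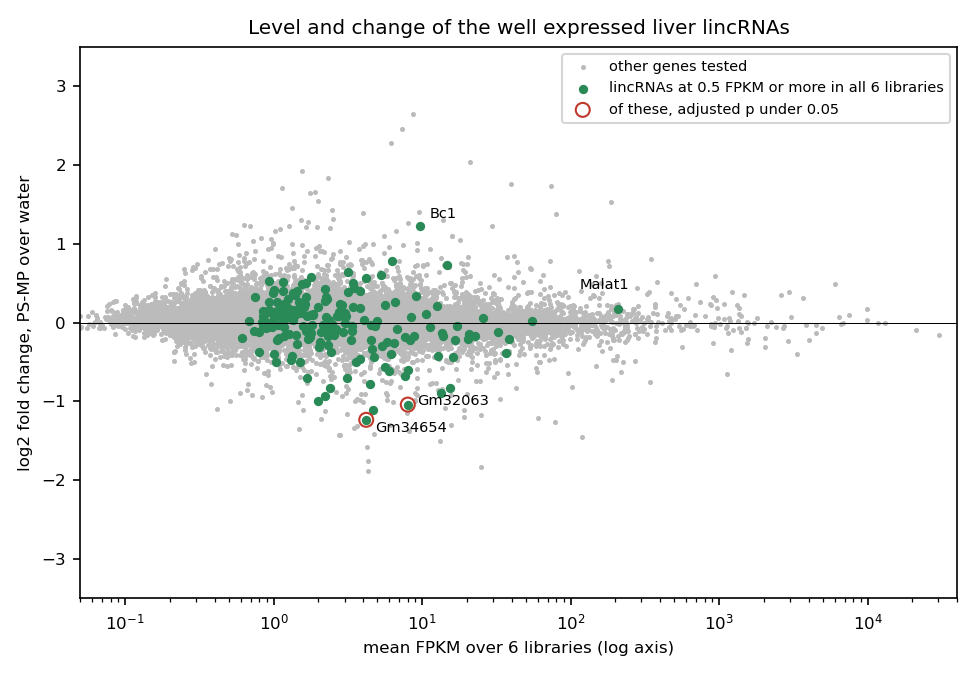
Mean FPKM over the 6 libraries (log axis) against the log2 fold change of PS-MP over water, with each of the 181 members tested in green, all other genes tested in grey and the 2 members with an adjusted p under 0.05 ringed. Gm34654 and Gm32063 lie near -1, and Bc1 has the highest fold change of the members.

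Gm34654 had the lowest p of all members. It is a spliced gene on the minus strand of chromosome 9 from 77807036 to 77809793 (GRCm38, as are all coordinates), 12551 bases from Gclc, which lies on the other strand and encodes the catalytic subunit of the first enzyme of glutathione synthesis. RefSeq GRCm38.p6 gives 2 start sites for it, 818 and 42111 bases from the GENCODE start, and Gm32063 has 1 start site there, 299 bases away. The promoter windows of these starts are shown because these 2 genes are the members that passed the test. Each holds 300 bases, mostly before the RefSeq start, printed 5′ to 3′ on the strand of the gene, and capitals mark a CACGTG match.
Gm34654 window at chr9:77808926-77809225 (-): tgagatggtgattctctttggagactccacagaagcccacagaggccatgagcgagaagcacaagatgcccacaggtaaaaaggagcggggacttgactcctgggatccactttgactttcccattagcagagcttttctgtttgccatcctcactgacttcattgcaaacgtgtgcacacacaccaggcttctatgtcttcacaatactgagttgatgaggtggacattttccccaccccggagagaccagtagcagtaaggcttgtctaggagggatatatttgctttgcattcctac
Gm34654 window at chr9:77851855-77852154 (-): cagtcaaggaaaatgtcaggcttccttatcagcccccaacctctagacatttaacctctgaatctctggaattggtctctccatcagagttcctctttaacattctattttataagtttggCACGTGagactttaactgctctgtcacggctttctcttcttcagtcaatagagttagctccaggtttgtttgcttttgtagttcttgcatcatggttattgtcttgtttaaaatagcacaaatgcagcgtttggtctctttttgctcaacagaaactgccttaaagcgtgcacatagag
Gm32063 window at chr13:41235796-41236095 (+): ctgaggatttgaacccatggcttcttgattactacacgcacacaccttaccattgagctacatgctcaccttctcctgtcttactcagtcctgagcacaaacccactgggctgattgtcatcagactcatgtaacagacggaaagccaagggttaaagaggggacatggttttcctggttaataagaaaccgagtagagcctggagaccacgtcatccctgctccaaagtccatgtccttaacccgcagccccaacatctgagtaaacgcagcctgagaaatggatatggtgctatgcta

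These windows were searched on both strands for 3 motifs: the E-box CACGTG, bound by the core clock activators and by MYC, the D-box TTATGTAA, bound by PAR bZIP factors, and the cyclic AMP response element TGACGTCA, bound by CREB. No match overlapped a match of another motif in the printed windows. The distal window of Gm34654 held an E-box and the other printed windows held none of the 3 motifs. An E-box stood in 8.86% of the 158 windows that belong to members and in 7.15% of all 32851 RefSeq promoter windows. The D-box stood in 0.633% of the member windows and in 0.938% of all windows, and the response element stood in 1.27% of the member windows and in 1.79% of all windows. A match of letters is no evidence of binding.

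Gm34654 had 1.86, 2.70 and 2.38 FPKM in PS-MP replicates 1, 2 and 3 and 6.52, 5.18 and 6.57 FPKM in water replicates 1, 2 and 3, from 13, 23 and 19 reads in PS-MP and 53, 47 and 51 reads in water. All PS-MP libraries lay below all water libraries. It averaged 2.31 ± 0.42 FPKM in PS-MP and 6.09 ± 0.79 FPKM in water (SD, n = 3 each), a log2 fold change of -1.23 with a standard error of 0.14 (limma, adjusted p = 0.0258). The call was kept without PS-MP replicate 1 or water replicate 2. It was lost without PS-MP replicate 2, PS-MP replicate 3, water replicate 1 or water replicate 3 (limma, adjusted p = 0.0539 to 0.143). The log2 fold change stayed between -1.37 and -1.05 in all 16 refits, which include the one without the 3 libraries with Ucp1 reads. Its neighbour Gclc had 71.7, 69.4 and 41.3 FPKM in PS-MP and 99.5, 76.4 and 72.4 FPKM in water, a log2 fold change of -0.47 that did not pass (limma, adjusted p = 0.408).

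Gm32063 lies on the plus strand of chromosome 13 from 41236345 to 41241478, with up to 7 exons, 8366 bases upstream of Smim13. It had 5.10, 4.65 and 5.30 FPKM in PS-MP and 13.8, 8.92 and 10.3 FPKM in water, from 108, 120 and 128 reads in PS-MP and 339, 245 and 242 reads in water. The PS-MP libraries were close to each other and all below the water libraries, of which replicate 1 was the highest. The means were 5.01 ± 0.33 FPKM in PS-MP and 11 ± 2.5 FPKM in water (SD, n = 3 each), a log2 fold change of -1.04 with a standard error of 0.15 (limma, adjusted p = 0.0386).
This call was kept without water replicate 2 (limma, adjusted p = 0.0397). It was lost without any of PS-MP replicates 1, 2 or 3, water replicate 1 or water replicate 3, with adjusted p-values of 0.0718 to 0.16. Over the 16 refits its log2 fold change stayed between -1.17 and -0.81. Smim13 had 12.3, 11.3 and 11.5 FPKM in PS-MP and 10.5, 11.1 and 11 FPKM in water, a log2 fold change of 0.10 (limma, adjusted p = 0.564). In a bulk tissue, fewer cells of a type and less RNA per cell cannot be told apart for either lincRNA.

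None of the members below passed the threshold, and their values are given as a description. For 31 of the 48 named members that were tested and not called, leaving out libraries turned the log2 fold change or moved it by over 1.5 times. Gm34667, on chromosome 12 from 109990882 to 110023873, had 10.1, 8.23 and 9.11 FPKM in PS-MP and 22.1, 13.4 and 17.7 FPKM in water. The groups did not overlap, with PS-MP lower, and the log2 fold change was -0.90 with a standard error of 0.17 (limma, adjusted p = 0.0919). Without water replicate 2, Gm34667 passed with an adjusted p of 0.0397 by limma. Without the 3 libraries with Ucp1 reads its log2 fold change was -0.53. Its nearest protein-coding gene, Dio3, lies 255195 bases away and had too few reads to be tested.

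Gm30301 had 4.81, 5.39 and 3.80 FPKM in PS-MP and 7.17, 7.33 and 7.5 FPKM in water, a log2 fold change of -0.61 (limma, adjusted p = 0.0967). Every PS-MP library lay below every water library. Its end lies 42328 bases upstream of Slc34a2 on the same strand, a sodium-dependent phosphate transporter that was itself lower in PS-MP, with 0.107, 0.0751 and 0.0669 FPKM in PS-MP and 0.709, 0.765 and 0.756 FPKM in water (log2 fold change -1.09, limma adjusted p = 0.0093). The Slc34a2 call was lost without PS-MP replicate 2 (limma, adjusted p = 0.0539), water replicate 1 (0.0831) or water replicate 3 (0.106), at log2 fold changes of -1.11 to -1.08. Without the 3 libraries with Ucp1 reads the log2 fold change of Slc34a2 was -1.1. An exon of Gm30301 overlaps 5033403H07Rik on the other strand, so its reads may be shared with that gene. The lincRNA lies at levels above those of the coding neighbour in all 6 libraries.

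Among the further low members, C330002G04Rik and AC121973.1 overlap each other on opposite strands of chromosome 19 and cannot be counted as separate without strand information. C330002G04Rik had 1.35, 1.02 and 1.11 FPKM in PS-MP and 2.09, 1.79 and 1.66 FPKM in water, and AC121973.1 had 12.4, 9.56 and 10.8 FPKM in PS-MP and 15.95, 13.6 and 14.8 FPKM in water. The PS-MP libraries lay below the water libraries in both. Likewise 1300002E11Rik, with a log2 fold change of -0.47, shares exon with Map3k13 on the same strand. The remaining members among the 10 lower ones with the smallest p were AC132455.2 (log2 fold change -0.56), Gm45086 (-0.997, from only 6 to 12 reads a library in PS-MP and 18 to 24 in water) and Gm30931 (-0.50). Their adjusted p-values by limma ran from 0.103 to 0.178.

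The 10 higher members with the smallest p had log2 fold changes of 0.32 to 0.78. Gm39469, which RefSeq types as protein-coding, had 6.14, 6.81 and 6.54 FPKM in PS-MP and 3.57, 3.84 and 4.93 FPKM in water (log2 fold change 0.61, limma adjusted p = 0.0967). Gm38079 had 8.44, 7.33 and 8.27 FPKM in PS-MP and 4.28, 5.75 and 3.58 FPKM in water. For both genes the groups did not overlap. Gm38079 is a single exon of 154 bases, 232 bases downstream of Tlr5 on the same strand. Tlr5 encodes the receptor for bacterial flagellin, and reads running on from it cannot be told apart from reads of Gm38079. The FPKM of Gm38079 rest on 17, 18 and 19 reads in PS-MP and 10, 15 and 8 reads in water. Its log2 fold change was 0.78 (limma, adjusted p = 0.0967). It passed without water replicate 2 (limma, adjusted p = 0.0397), and its log2 fold change was 0.42 without the 3 libraries with Ucp1 reads. The log2 fold change of Tlr5 was 0.34 (adjusted p = 0.274).

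Gm30262 was the most abundant of the higher members, with 14.98, 16.9 and 24.2 FPKM in PS-MP and 11.6, 10.2 and 10.6 FPKM in water. All PS-MP libraries lay above all water libraries and PS-MP replicate 3 was the highest (log2 fold change 0.74, standard error 0.16, limma adjusted p = 0.119). It is the member with a D-box in its RefSeq promoter window. Its nearest protein-coding gene, Phlda1, lies 90532 bases away and had 8.74, 28.1 and 24.6 FPKM in PS-MP and 7.47, 6.72 and 7.21 FPKM in water (log2 fold change 1.3, limma adjusted p = 0.207).

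Gm17586 starts 168 bases from Mafg on the opposite strand. Mafg encodes a small MAF protein, the DNA-binding partner of NRF2. The lincRNA had 5.89, 3.59 and 5.98 FPKM in PS-MP and 3.12, 3.44 and 3.11 FPKM in water, with PS-MP replicate 2 only slightly above the water libraries. The log2 fold changes were 0.57 for Gm17586 (limma, adjusted p = 0.236) and 0.33 for Mafg (adjusted p = 0.158). Gm44421 (0.50, downstream of Klf15), Gm30122 (0.58), Gm43597 (0.53), Gm14221 (0.51), Snhg12 (0.42) and Gm26981 (0.32) complete the 10, with adjusted p-values of 0.103 to 0.252. Klf15, a transcription factor of fasting metabolism, differed little beside Gm44421, with 57, 57 and 57.1 FPKM in PS-MP and 57.8, 59.7 and 52.6 FPKM in water.

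**Figure D3:**
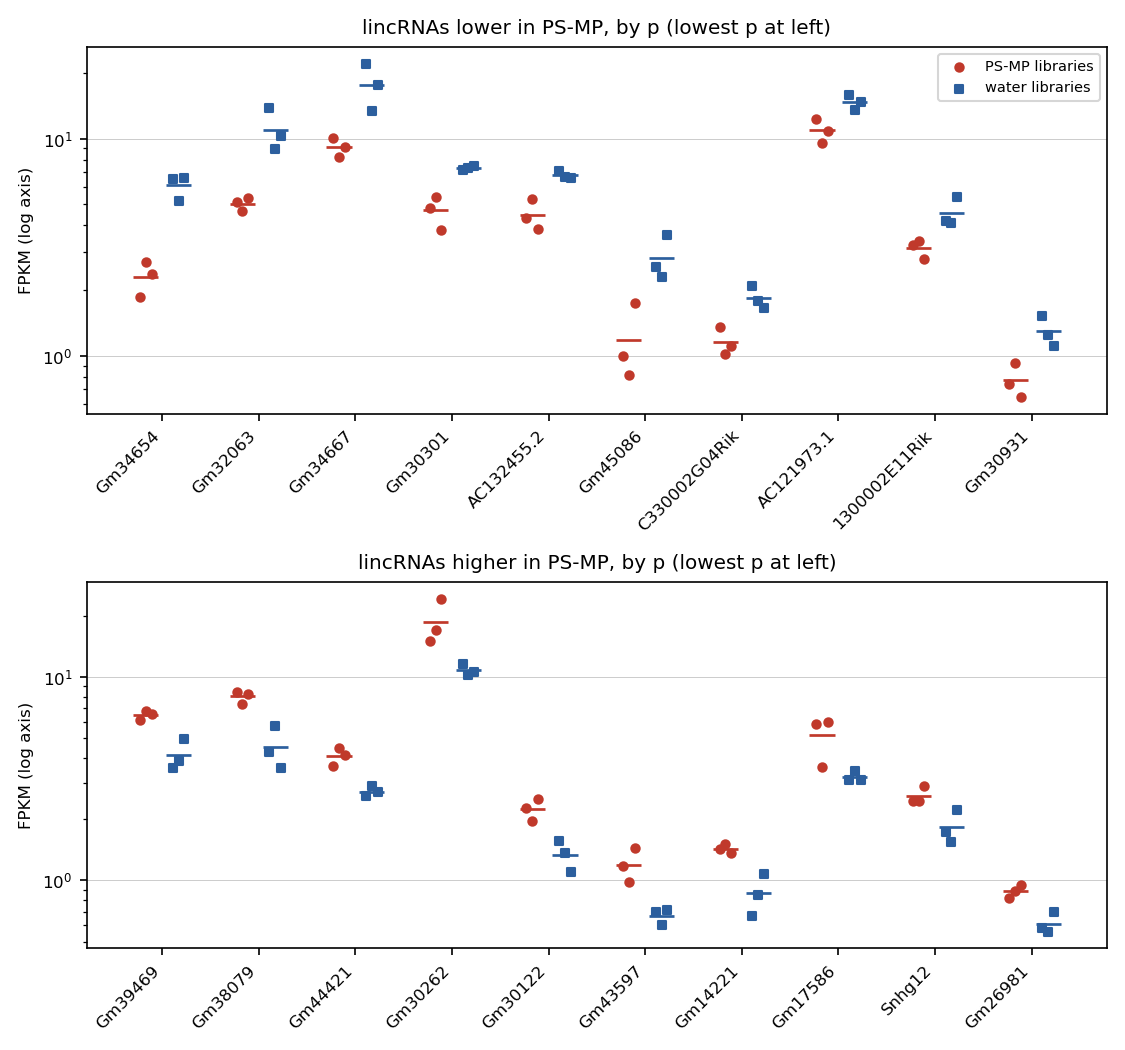
FPKM (log axis) of the 10 lower and the 10 higher members with the smallest p, with PS-MP libraries as circles left of water libraries as squares and bars at the group means. The groups do not overlap in any of these 20 members, which were picked for their p, and Gm34654 and Gm32063 are the pair at the left of the upper panel that passed the test.

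By role, the named members did not pass the test. The list named for nuclear and architectural RNAs also holds Norad, which is known from the cytoplasm. Of this list, 8 genes were tested and 0 called by limma, with 0 at an unadjusted p under 0.05. Its members Malat1, Neat1 and Norad are given above, and the fourth, 1700020I14Rik (Cyrano, known for pairing with miR-7), had 14.1, 12.02 and 14.6 FPKM in PS-MP and 11.1, 10.6 and 13.3 FPKM in water. The groups overlapped (log2 fold change 0.22, limma adjusted p = 0.453). The list's median log2 fold change was 0.07, against 0.01 over all genes tested.

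Of the snoRNA hosts, genes whose introns carry small nucleolar RNAs that guide ribosomal RNA modification, 16 were tested, 0 were called by limma and 2 had an unadjusted p under 0.05, beside 13.1% of all genes tested. The members were Snhg6, Snhg12, Snhg20 and Epb41l4aos. Snhg12 had 2.45, 2.46 and 2.90 FPKM in PS-MP and 1.73, 1.55 and 2.21 FPKM in water, with no overlap between the groups (log2 fold change 0.42, limma adjusted p = 0.237). Snhg1, a host that the annotation does not type as lincRNA, was the other gene under 0.05 (log2 fold change 0.34, adjusted p = 0.369). Epb41l4aos and Snhg20 had log2 fold changes of -0.08 and -0.06, and Snhg6 had 0.08, which turned to -0.07 without PS-MP replicate 3.

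Of the genes named in liver metabolism studies, 11 were tested and 0 called by limma, with 4 at an unadjusted p under 0.05, beside 13.1% of all genes tested, and none of these is a member. C730036E19Rik is lncLSTR, a liver lincRNA described in mouse as acting on bile acid and triglyceride metabolism. It had 10.7, 5.69 and 14.7 FPKM in PS-MP and 10.2, 7.87 and 5.25 FPKM in water. The PS-MP libraries spanned more than the whole water range, and the log2 fold change of 0.34 (limma, adjusted p = 0.706) came to -0.01 without the 3 libraries with Ucp1 reads. The other members of this list were 9030616G12Rik (log2 fold change -0.13), 2310001H17Rik (0.18), Neat1 and Malat1. By log2 fold change, the 4 genes under 0.05 were Gm10319 (-0.54), Gm10804 (0.68), Gm16551 (0.52) and Gm15441 (-1.50). Their adjusted p-values by limma ran from 0.127 to 0.304.

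Jpx, an activator of Xist and the member of the list of imprinted and X-linked RNAs, had 1.01, 0.774 and 0.965 FPKM in PS-MP and 0.745, 0.741 and 0.850 FPKM in water. PS-MP replicate 2 fell within the water range (log2 fold change 0.15, limma adjusted p = 0.61). Of this list 7 genes were tested and 0 called by limma, with 0 at an unadjusted p under 0.05. The list of ribosomal RNA repeat loci had 1 gene tested, Gm26917, whose log2 fold change was -0.21 (limma, adjusted p = 0.821) and 0.18 without PS-MP replicate 3.

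Several members contain small RNA genes, and the FPKM of a host does not measure the small RNA cut from it. The annotation places a microRNA inside 6 members and a snoRNA or scaRNA inside 7. Mature microRNAs of 5 of these hosts are shown to identify them, from RefSeq GRCm38.p6 and 5′ to 3′, with the seed (bases 2 to 8) in capitals. The 3 let-7 microRNAs of 6720427I07Rik share the seed GAGGUAG, and the others have seeds of their own. MiR-101a lies in E130102H24Rik, miR-30c in Gm27028, miR-1839 in 2900076A07Rik and miR-6516 in Snhg20.
mmu-let-7a-5p: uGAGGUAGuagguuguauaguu
mmu-let-7d-5p: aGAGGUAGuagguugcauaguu
mmu-let-7f-5p: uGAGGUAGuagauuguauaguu
mmu-miR-101a-3p: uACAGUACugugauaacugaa
mmu-miR-30c-5p: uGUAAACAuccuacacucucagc
mmu-miR-1839-5p: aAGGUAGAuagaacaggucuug
mmu-miR-6516-5p: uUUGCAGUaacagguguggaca

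The host of the let-7 cluster, 6720427I07Rik, had 0.737, 0.594 and 0.730 FPKM in PS-MP and 0.765, 0.632 and 0.947 FPKM in water. The groups overlapped, with water replicate 3 the highest (log2 fold change -0.11, limma adjusted p = 0.764). E130102H24Rik had 6.16, 4.31 and 5.26 FPKM in PS-MP and 6.53, 5.01 and 7.35 FPKM in water, and Gm27028 had 1.92, 2.67 and 3.02 FPKM in PS-MP and 1.82, 1.33 and 2.76 FPKM in water. For both hosts the groups overlapped, with log2 fold changes of -0.24 and 0.32 (limma, adjusted p = 0.567 and 0.584). The host values for miR-1839 and miR-6516 differed by 0.03 and -0.06 on the log2 scale.

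AC157910.3 holds Mir122, the gene of the most abundant microRNA of hepatocytes. It had 18.8, 10.3 and 12.3 FPKM in PS-MP and 13.8, 20.5 and 21.6 FPKM in water. PS-MP replicates 2 and 3 lay below all water libraries, whereas PS-MP replicate 1 lay within the water range (log2 fold change -0.44, standard error 0.23, limma adjusted p = 0.476). Among the snoRNA hosts without a place in the lists, 9430037G07Rik had 0.994, 1.58 and 1.25 FPKM in PS-MP and 4.76, 1.41 and 3.29 FPKM in water. Water replicates 1 and 3 were the high libraries and water replicate 2 lay within the PS-MP range (log2 fold change -0.94, limma adjusted p = 0.3).

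The members sit at all kinds of places relative to coding genes. Of the 185 members, 22 start within 2000 bases of a protein-coding gene's start and run away from it without overlap. Another 23 overlap a protein-coding gene on the opposite strand and 3 on the same strand. A further 43 lie downstream of the nearest one on the same strand, 37 upstream of it on the same strand and 57 on the opposite strand at other places. Some members that overlap on the opposite strand also start near the coding gene's start, such as Gm19710, 20 bases from that of Hax1. The median gap was 9037 bases. The nearest protein-coding gene was tested for 155 members and called for 2, beside 0.489% of all genes tested: Slc34a2, beside Gm30301, and Syne3, beside Gm28875. Syne3, a nuclear envelope protein, was higher in PS-MP (log2 fold change 0.67, limma adjusted p = 0.0487). It did not pass in any refit that left out a single library (limma, adjusted p = 0.0933 to 0.178, log2 fold change 0.61 to 0.72). Without the 3 libraries with Ucp1 reads its log2 fold change was 0.61. Gm28875 had 1.48, 2.16 and 1.47 FPKM in PS-MP and 0.942, 0.993 and 1.56 FPKM in water, where water replicate 3 overlapped the PS-MP libraries (log2 fold change 0.41, limma adjusted p = 0.39).

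**Figure D4:**
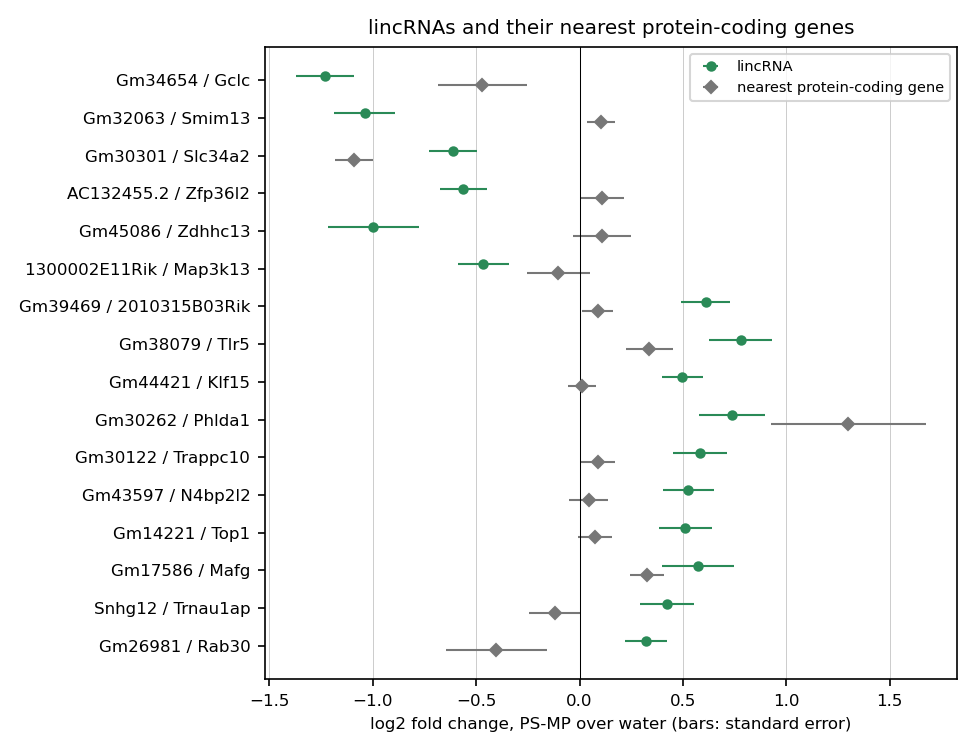
Log2 fold change of PS-MP over water with its standard error for the members with the smallest p whose nearest protein-coding gene was tested (circles) and for that gene (diamonds). Gm30301 and Slc34a2 both lie below 0, and Gm30262 and Phlda1 both lie above 0. The signs differ for Gm32063 and Smim13, AC132455.2 and Zfp36l2, Gm45086 and Zdhhc13, Snhg12 and Trnau1ap, and Gm26981 and Rab30. In the other pairs the signs are the same.

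Some members lie close together: 39 have another member within 50000 bases, in 17 clusters, of which 4 hold 3 or more. The cluster at the Irs2 gene, which encodes an insulin receptor substrate, spans 10870422 to 10900558 on chromosome 8. There Gm45044 had 12.7, 12.04 and 6.77 FPKM in PS-MP and 22.6, 9.69 and 28.5 FPKM in water, and B930025P03Rik had 3.42, 3.41 and 2.45 FPKM in PS-MP and 6.18, 3.71 and 7.58 FPKM in water. Water replicates 1 and 3 were high in both, and water replicate 2 lay near or within the PS-MP range. Gm2814, the third, followed with 5.03, 5.75 and 4.78 FPKM in PS-MP and 7.89, 5.22 and 8.14 FPKM in water. Irs2 had 2.56, 4.68 and 2.87 FPKM in PS-MP and 7.75, 2.56 and 6.20 FPKM in water. None of the 4 passed the test, with adjusted p-values of 0.231 to 0.56 by limma and log2 fold changes of -0.83 (Gm45044), -0.78 (B930025P03Rik), -0.40 (Gm2814) and -0.55 (Irs2).

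The clusters with 3 or more members also include a stretch of chromosome 13 from 74434781 to 74617945, with log2 fold changes of 0.40 for E430024I08Rik, 0.20 for Gm47467, 0.26 for Gm47469 and -0.31 for Gm46430. The members there did not share a direction. Chromosome 10 held 19 members, chromosome 5 held 18 and chromosome 1 held 15. Exons of 51 members overlap an exon of another gene, 40 of them on the other strand and 15 on the same strand, and their values may include reads of that gene.

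Single libraries decided the values of the most variable members. Bc1, a short RNA polymerase III transcript that neurons carry into dendrites, had 9.10, 4.86 and 29.9 FPKM in PS-MP replicates 1, 2 and 3 and 7.06, 4.92 and 2.46 FPKM in water replicates 1, 2 and 3, from 20, 13 and 75 reads in PS-MP and 18, 14 and 6 reads in water. PS-MP replicate 3 was far above the other 5 libraries and the groups overlapped. The log2 fold change of 1.23 with a standard error of 0.60 did not pass (limma, adjusted p = 0.438) and was 0.54 without PS-MP replicate 3. The transcript is printed from GENCODE M21 because its length bears on these values: over 168 bases, 6 reads already give 2.46 FPKM. Capitals mark its run of 23 A bases.
Bc1 at chr7:144914470-144914637 (+): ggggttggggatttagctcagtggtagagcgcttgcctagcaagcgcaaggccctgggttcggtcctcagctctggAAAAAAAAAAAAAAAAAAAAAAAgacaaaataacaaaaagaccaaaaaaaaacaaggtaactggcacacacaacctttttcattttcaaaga

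In the same library the brain markers were high. Reads of Snap25, which encodes a synaptic fusion protein, numbered 61, 19 and 860 in PS-MP replicates 1, 2 and 3 and 1, 2 and 0 in water replicates 1, 2 and 3. Of the 12 brain markers, 6 were tested and 0 called by limma, and their summed level ran from 21.7 to 224 CPM in PS-MP and from 11.7 to 13.8 CPM in water. Gad1, Gad2, Mobp and Stmn2 were at 0 reads in all 3 water libraries, whereas Bc1 had reads in all 3. The part of brain transcripts in the Bc1 value was not tested.

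Lncbate1 is known from brown adipocytes and had 0.659, 1.93 and 2.23 FPKM in PS-MP and 1.62, 1.31 and 1.70 FPKM in water. Ucp1 had 0 reads in PS-MP replicates 1 and 2 and in water replicate 2, where Lncbate1 had 7, 25 and 18 reads. In PS-MP replicate 3 and water replicates 1 and 3, which hold Ucp1 reads, Lncbate1 had 27, 20 and 20 reads. The part of fat transcripts in the Lncbate1 values was not tested. The 6 brown fat markers, of which 3 had reads in all 6 libraries, summed to 142 to 189 CPM in PS-MP and to 212 to 348 CPM in water, most of it from Elovl3, which hepatocytes also express. Lncbate1 lies inside Zfhx3 on the opposite strand, and its log2 fold change was -0.04 (limma, adjusted p = 0.968).

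**Figure D5:**
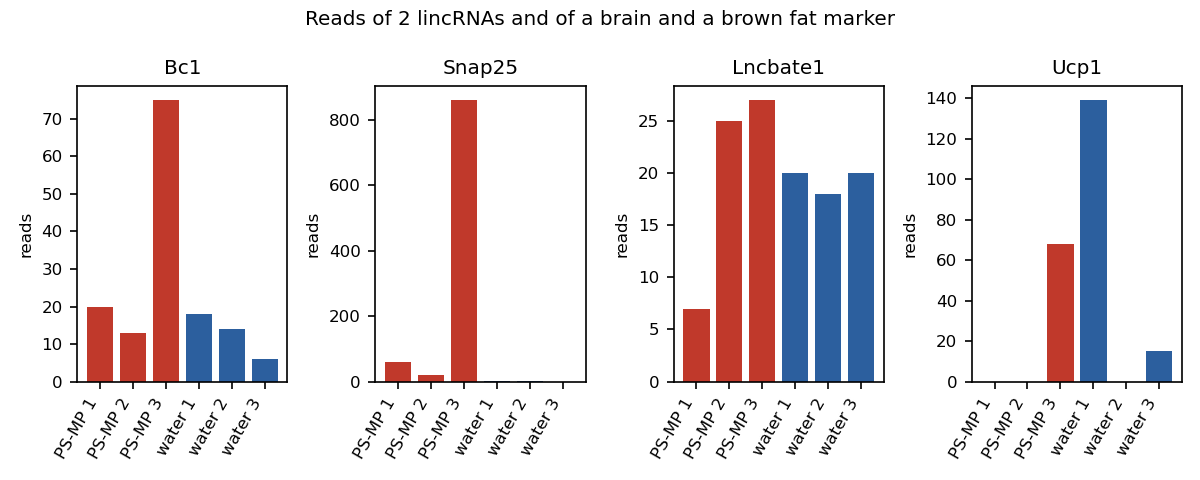
Reads per library of Bc1, of the brain marker Snap25, of Lncbate1 and of the brown fat marker Ucp1, with the PS-MP libraries left of the water libraries. Bc1 and Snap25 are both highest in PS-MP replicate 3 with 75 and 860 reads, whereas Lncbate1 has reads in all 6 libraries and Ucp1 in 3.

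The other members with the widest spread within groups were Gm15611, AC102496.1, Gm42047 and BC049987. Gm15611, just upstream of the peroxisomal acyltransferase gene Crot, had 1.69, 4.64 and 1.82 FPKM in PS-MP and 6.16, 1.16 and 6.11 FPKM in water. High and low libraries occurred in both groups. Its log2 fold change was -0.50, and 1.01 without the 3 libraries with Ucp1 reads. Gm42047 had 3.53, 3.43 and 10.3 FPKM in PS-MP and 16.5, 8.30 and 4.21 FPKM in water, and AC102496.1 had 1.81, 1.06 and 6.57 FPKM in PS-MP and 3.62, 9.08 and 6.00 FPKM in water. Neither passed (limma, adjusted p = 0.616 and 0.434), and in both PS-MP replicate 3 was the highest of its group.

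At the edge of the rule, the 5 members with the lowest single value were Bvht (0.507 FPKM), A430110L20Rik (0.507), Gm40770 (0.543), Gm35665 (0.544) and Gm11707 (0.547). Bvht is a lincRNA of heart development and had 1.31, 1.26 and 0.959 FPKM in PS-MP and 1.13, 0.507 and 0.788 FPKM in water. The lincRNAs just outside were Gm13021 (0.494 FPKM in its lowest library), Gm43254 (0.491), Gm45253 (0.484), Gm34777 (0.476) and Mir17hg (0.476). The lowest value of Bvht rested on 6 reads.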

How the data were processed

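RNA sequencing of 6 liver libraries was analysed, 3 from PS-MP mice and 3 from water mice, grouped by their labels. Each library has a deposited table of FPKM values, which the authors made. Named in the submitters' processing notes are CASAVA, FastQC, MultiQC, Trimmomatic 0.38, HISAT2 2.1.0, featureCounts 1.6.0 and DESeq2 1.22.1. They also name GRCh38, a human build, but every gene identifier matches mouse GENCODE M21 (GRCm38), from which names, types and coordinates were taken. RNA selection and whether counting used strand are not given in the sources used here.

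FPKM times exon length gave whole reads for 100.0% of values within 0.001 reads. The totals ran from 13082210 to 16948343, and members had a median of 280 reads over 6 libraries, so counting error is large for most of them. The design had foreseen counts, and since the unit is FPKM, limma 3.58.1 (limma-trend, R 4.3.3) was run on log2(FPKM + 0.5) with no covariates beside group, and Benjamini-Hochberg adjustment ran over the 13299 genes with at least 0.66 CPM in 3 libraries and 15 reads in all, at a threshold of 0.05. Fold changes of low genes are understated on this scale. The procedure was tested on simulated reads with the same spread for all genes. It called 5.32% of changes of 1.5 times, 42.7% of those of 2 times and 95.1% of those of 4 times. Of its calls 6.52% were false. The members' own spread was not simulated. Limma-voom on the recovered reads, other pseudocounts, filters, scalings and membership rules, a replicate block and each library left out were alternatives. Tables and figures were made with Python 3.11.15.

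The members, gene lists and tests were chosen with earlier results of these data known. A member was named when it was called, among the 10 with the smallest p in each direction, among the 12 most abundant, in a role list, among the 5 nearest the threshold on each side, among the 5 most variable, beside a called coding gene, or in a count of 5 or fewer. Members named for a small RNA inside them, for their place in a cluster, or as a brown fat transcript were chosen after their values were seen. Sequences come from RefSeq GRCm38.p6 and GENCODE M21.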

Additional observations from a re-analysis of the deposited data

How the results depend on the processing

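The count of 2 called members was the same under 2 other pseudocounts, a filter of 1 CPM, 2 other scalings, robust variance estimation and 3 other membership rules. It was 0 with no low-value rule (33 members at an unadjusted p under 0.05 by limma-trend) and 1 with limma-voom (Gm32063, while Gm34654 had an adjusted p of 0.0514). It ran from 0 to 4 when single libraries were left out. Leaving out the 3 libraries with Ucp1 reads was an alternative chosen after seeing the data. No count is given for it, since water replicate 2 is then the only water library. The count over all genes, 65, was 0 with no low-value rule (2064 under 0.05), 133 with limma-voom and 0 to 36 without single libraries (1193 to 1776 under 0.05). Having no low-value rule adds genes with few reads to both the fit and the adjustment, and leaving out libraries leaves fewer samples. What made these counts differ was not tested. The members' median log2 fold change stayed between -0.05 and 0.02.

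With a replicate block the member count was 0 and the count over all genes was 23. In that fit 47 members had an unadjusted p under 0.05 by limma-trend. The share over all genes is not given for it, so the 47 are no result about the members. No label says whether the shared replicate numbers pair the libraries. Deviations of same-numbered libraries correlated at -0.04, 0.05 and -0.01 over genes, and those of differently numbered libraries at -0.054 to 0.0655. Pairing was thus not seen, but so few libraries cannot exclude it.

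Of the 50 named members tested, 13 changed sign in at least 1 of 16 refits, and none of these passed the test in any. Without the Ucp1 libraries the log2 fold change was 0.29 for Gm26917, 0.59 for 9030616G12Rik, -0.0084 for C730036E19Rik, 0.23 for Epb41l4aos, -0.17 for Snhg6, -0.16 for Gm40770, 1.01 for Gm15611 and -0.51 for BC049987. Leaving out single libraries gave -0.0681 to 0.0771 for AC117816.1, -0.58 to 0.18 for Gm31583, -0.55 to 0.18 for Gm26917, -0.15 to 0.0447 for Gm48633, -0.42 to 0.23 for 9030616G12Rik, -0.28 to 0.18 for Epb41l4aos, -0.0683 to 0.20 for Snhg6, -0.14 to 0.0116 for Snhg20, -0.0729 to 0.60 for Gm40770, -0.29 to 0.0343 for Gm35665 and -0.23 to 0.70 for BC049987. Depth is a limit for many members: the lowest had 25 reads in all 6 libraries together.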

Other observations

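Genes of the lists that the rule left out gave the larger values. Mir22hg, the host of miR-22, is typed as a processed transcript and had 36.1, 36.1 and 38.8 FPKM in PS-MP replicates 1, 2 and 3 and 22.7, 24.7 and 25.3 FPKM in water replicates 1, 2 and 3. The groups did not overlap, and the log2 fold change was 0.60 (limma, adjusted p = 0.0261). It was the single call among the 4 tested genes of the list of microRNA hosts. That list holds none of the 6 members with a microRNA inside, and none of those members was called. The Mir22hg call was lost in every refit that left out a single library (limma, adjusted p = 0.0546 to 0.128, log2 fold change 0.556 to 0.635). Its log2 fold change was 0.54 without the 3 libraries with Ucp1 reads. Gm15441, an antisense RNA from the list of liver metabolism studies, had 7.02, 14.9 and 2.04 FPKM in PS-MP and 18.7, 18.1 and 18.1 FPKM in water, with every PS-MP library lower and widely spread (log2 fold change -1.50, limma adjusted p = 0.304).

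Meg3, an imprinted lincRNA abundant in brain, had 1.03, 0.642 and 6.18 FPKM in PS-MP and 0.484, 0.408 and 0.373 FPKM in water, so it lay outside the rule. PS-MP replicate 3, the library with the high brain marker sum, was the highest (log2 fold change 1.3, limma adjusted p = 0.388), and the part of brain transcripts in this value was not tested. Of the 112 lincRNAs tested that are not members, 0 were called by limma and 17 had an unadjusted p under 0.05. Those 17 are 15.2%, beside 13.1% of all genes tested.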
